A study of Homo sapiens with 6 samples.

Results

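Described here are 9 genes of HLA class I antigen presentation, HLA-B, HLA-C, HLA-E, HLA-F, B2M, TAP1, TAP2, TAPBP and NLRC5, out of 58735 genes in the deposited tables. They were chosen by name, as the rows whose gene name is one of these symbols, and all 9 had enough counts to be among the 15881 genes tested. RNA-seq libraries came from MDA-MB-231 cells, a line from a human breast cancer of the triple-negative kind, wild-type in genotype per the labels and grown in high-glucose DMEM with serum. All cells were stained with PKH26, a fluorescent membrane dye that is diluted at each division, and grown for 12 days. Slow-cycling cells (SCC, the series' dormant cells) were the brightest 1% in a sort by flow cytometry. Rapid-cycling cells (RCC, the series' proliferating control) were sorted at moderate brightness per the protocol, while their characteristics give low dye. Each group had 3 biological replicates, and both groups carried the dye and went through the sort, so an unstained or unsorted state was not compared.

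HLA class I molecules show the immune system short peptides from proteins made inside the cell. A heavy chain (the variable HLA-B and HLA-C, for example, or the less variable HLA-E and HLA-F) pairs with the light chain beta-2 microglobulin, encoded by B2M. Peptides cut by the proteasome are pumped into the endoplasmic reticulum by the TAP1-TAP2 transporter, and tapasin, the product of TAPBP, bridges the transporter to the empty heavy chain. NLRC5 is the transactivator that drives transcription of these genes, and interferons raise them, in part through IRF1. CD8 T cells read the classical molecules, and natural killer cells are held back by them. Tumour cells, breast cancer cells among them, are known for losing class I from their surface in many cases.

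The upstream sequences of HLA-B, HLA-C and B2M are shown because HLA-B gave the clearest difference of all 9 genes, HLA-C is its nearest relative with a smaller value, and B2M encodes their shared partner. RefSeq promoter windows on GRCh38.p14, from 250 bases before to 50 bases after the start, were at hand for 7 of the 9 genes, with none for HLA-E or NLRC5. The stretch from 200 to 45 bases before the start, 156 bases, is printed 5′ to 3′ on the gene's own strand. Capitals mark 3 motifs found on either strand: an interferon response element (GAA or GAAA, any 2 bases, GAAA), a kappaB motif (GGG, any 2 bases, then TTTCC or TTCCC) and a Y box (CCAATCAG).
HLA-B, chr6:31357224-31357379, minus strand: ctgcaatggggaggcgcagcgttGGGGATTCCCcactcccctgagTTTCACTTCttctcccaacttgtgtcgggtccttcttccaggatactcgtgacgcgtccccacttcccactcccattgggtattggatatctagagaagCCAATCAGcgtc
HLA-C, chr6:31272137-31272292, minus strand: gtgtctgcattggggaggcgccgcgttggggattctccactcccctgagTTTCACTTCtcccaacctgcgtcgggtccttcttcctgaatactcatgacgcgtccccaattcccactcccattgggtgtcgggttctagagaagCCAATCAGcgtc
B2M, chr15:44711317-44711472, plus strand: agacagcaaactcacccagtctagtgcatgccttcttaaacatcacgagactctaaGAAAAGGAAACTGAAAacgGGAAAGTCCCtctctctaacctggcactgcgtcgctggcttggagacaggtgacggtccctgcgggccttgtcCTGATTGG

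The HLA-B and HLA-C stretches were 87.5% identical in alignment, with 12 mismatches and 8 gap bases, whereas HLA-B and B2M shared 46.6%. Motifs were searched in the 250 bases before the start of each window, and the 50 bases after the start were not searched. HLA-B held the kappaB letters GGGGATTCCC from 177 to 168 bases before its start, and HLA-C held no match to that motif in its 250 bases. The interferon motif occurred there in all 7 members that have a window, in 1 window each. Over all 35116 RefSeq promoter windows, searched in the same way, the share was 9.08%. TAP1 has 2 windows, and its second (chr6:32852712-32853011) held none of the motifs searched, so the members' counts are per gene and the shares per window. The kappaB motif occurred in HLA-B, B2M, TAP1 and TAPBP (3.52% of all windows), and the Y box in HLA-B, HLA-C, HLA-F and B2M (3.81%). The letters TGACG, a core of the X2 box that precedes the Y box in class I promoters, were found in HLA-B, HLA-C, B2M and TAP2 (21.2%). In B2M and in TAP2 a pair of interferon matches overlapped each other, as they did in TAP1 and TAPBP. The AP-1 motif TGANTCA, searched because the series' title names that factor, was absent from the searched bases of these 7 genes (6.57% of all windows). These matches describe letters in the reference, not binding in these cells.

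Library totals ran from 17655855 to 27831824 counts. For a check of the triple-negative label, the hormone receptor genes ESR1 and PGR were at or under 0.05 FPKM and ERBB2 lay between 6.9 and 10.2 FPKM. The mesenchymal gene VIM stood at 145 to 161 FPKM. Of the luminal markers, CDH1 was at or under 0.07 FPKM, and EPCAM, GATA3 and FOXA1 lay between 1.42 and 2.93 FPKM. The keratin genes were well expressed, KRT8 at 47.0 to 60.8, KRT18 at 56.9 to 68.4 and KRT19 at 34.2 to 51.5 FPKM. Of 5 mesenchymal markers FN1 was called higher in SCC (log2 change 0.49, adjusted p 0.00167), and of 7 tested receptor and luminal markers 0 were called, with the smallest p for KRT8 (0.26, adjusted p 0.0694). Of all tested genes, 268 were called higher and 60 lower in SCC (edgeR quasi-likelihood test, Benjamini-Hochberg adjusted p under 0.05), or 1.69% and 0.378%. SCC replicate 1 stood apart from the other libraries: its levels rose with the GC content of the gene, from a median log2 deviation of -0.23 in the lowest decile of genes by GC to 0.38 in the highest. The fit was therefore also made with a GC offset per library, which called 523 genes higher and 244 lower, and without that library, which called 642 and 343.

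Among the 9 genes, the heavy chain genes HLA-B and HLA-E were higher in SCC than in RCC, by 1.71-fold and 1.25-fold, while the light chain, the transporter, tapasin, NLRC5 and the other heavy chains did not pass the test. These 2 of 9 were called higher (22.2%, against a background of 1.69%), with 0 called lower (background 0.378%). The members were chosen with earlier results of these data known, so these shares are no independent test of the set. On the fitted log2 scale, 8 of the 9 changes were positive, with a median of 0.34, beside 0.00 over all tested genes. In 5 genes, HLA-B, HLA-C, HLA-E, HLA-F and TAPBP, every SCC library was above every RCC library on the CPM scale, a pattern seen in 14.4% of tested genes. Without adjustment, 7 genes had p under 0.05 in the higher direction and 0 in the lower, beside 1814 and 1313 of the 15881 genes. Called higher were 3 members with the GC offset (HLA-B, HLA-E and TAPBP, background 3.29%) and 5 without SCC replicate 1 (HLA-B, HLA-C, HLA-E, B2M and TAPBP, background 3.93%). The members' median log2 change was 0.21 with the offset and 0.28 without that library.

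**Figure D1:**
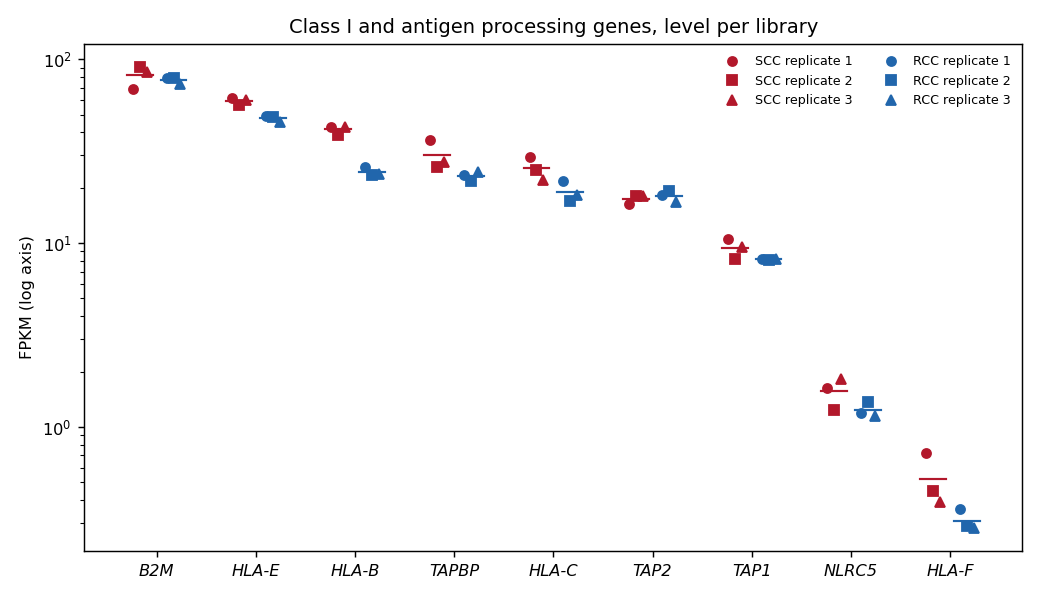
FPKM of the 9 genes in each library on a log axis, ordered by mean level, with SCC in red, RCC in blue, a symbol for each replicate and a short line at the group mean. HLA-B sits between 38.8 and 43.0 FPKM in SCC and between 23.5 and 26.0 in RCC, while the B2M and TAP2 values of the groups overlap.

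HLA-B (ENSG00000234745, chr6:31269491-31357188, minus strand, GRCh38) is a classical heavy chain and had the smallest p of the 9 genes. Its level was 132, 119 and 131 CPM (counts per unit of TMM-scaled library size) in SCC replicates 1 to 3 and 80.1, 71.4 and 72.4 CPM in RCC replicates 1 to 3. The groups were far apart, and SCC replicates 1 and 3 were nearly level. The means were 128 ± 7.54 CPM in SCC and 74.6 ± 4.74 CPM in RCC (SD, n = 3 each), and the log2 fold change was 0.77 (SE 0.077), with an adjusted p of 0.000346 in edgeR. HLA-B was called higher in each of the 19 alternative fits, at log2 changes from 0.62 to 0.82. Leaving out SCC replicate 1 gave 0.75, and the GC offset gave 0.62.

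The breadth of the HLA-B interval comes from a long annotated transcript that reaches into HLA-C, with which it shares 35 exonic bases on the same strand. HLA genes are close copies of each other, and 17.8% of the 50-base words in HLA-B transcripts also occurred in transcripts of other genes. Most of these, 15.1% of all words, lay in the pseudogene AL671883.2 on the opposite strand, which had a count of 0 in every library. With 100-base words the shared part was 12.9%. Class I alleles differ between cell sources, and how well reads from this line's alleles matched the reference was not tested.

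HLA-E (ENSG00000204592, chr6:30489467-30494205, plus strand) presents leader peptides of other class I chains to natural killer cell receptors. Its level was 187, 168 and 179 CPM in SCC and 148, 143 and 136 CPM in RCC. All SCC libraries were above all RCC libraries, by less than for HLA-B. The means of 178 ± 9.44 and 142 ± 6.28 CPM gave a log2 fold change of 0.32 (SE 0.069, adjusted p 0.0421 in edgeR), close to the threshold. The call held in 11 of 19 alternatives. It was lost without SCC replicate 3 (edgeR adjusted p 0.13) and without RCC replicate 1, 2 or 3 (0.158, 0.181 and 0.218). The log2 change was 0.28 to 0.35 in every leave-out fit. The call was also lost with upper-quartile scaling (edgeR adjusted p 0.0516) and in each limma fit on FPKM (adjusted p 0.085, 0.089 and 0.226).

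HLA-C (ENSG00000204525, chr6:31268749-31272130, minus strand), the classical chain that killer-cell inhibitory receptors read most widely, was not called. It measured 75.2, 63.0 and 55.3 CPM in SCC and 55.3, 42.3 and 46.1 CPM in RCC. The groups only just failed to overlap, SCC replicate 3 and RCC replicate 1 being equal to the last digit printed. The log2 fold change was 0.43 (SE 0.125, adjusted p 0.107 in edgeR). Its transcripts had the highest GC content of the 9 genes, 62.7%, and SCC replicate 1 was its highest library. With the GC offset the log2 change was 0.21 (adjusted p 0.219), whereas without SCC replicate 1 it was 0.30 and called (adjusted p 0.0315).

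HLA-F (ENSG00000204642, chr6:29722775-29738528, plus strand), a nonclassical chain, was the lowest of the 9 genes. Raw counts were 86, 38 and 36 in SCC and 36, 26 and 22 in RCC, or 3.19, 1.94 and 1.71 CPM against 1.56, 1.24 and 1.23 CPM. SCC replicate 1 lay well above the rest. The log2 fold change of 0.77 equalled that of HLA-B, but its standard error was 0.298 and the adjusted p 0.200. Without SCC replicate 1 the log2 change was 0.43. On the opposite strand lies HLA-F-AS1 (46 to 72 counts, log2 change -0.20), and the use of strand in counting is not given in the sources used here.

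Of 5 class I-like and other heavy chain genes listed beside the members, 2 were tested (HFE and MR1) and 0 called by edgeR. Before adjustment, 1 was above and 0 below RCC at edgeR p under 0.05, beside 1814 and 1313 of all 15881 tested genes. MR1, which presents vitamin metabolites to innate-like T cells, measured 9.09, 8.03 and 7.64 CPM in SCC and 6.26, 7.26 and 5.71 CPM in RCC. The groups did not overlap, with SCC wholly higher as in 14.4% of tested genes. The log2 fold change of MR1 was 0.36 (SE 0.144, adjusted p 0.203 in edgeR). HLA-G was listed at 0 in every library.

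B2M (ENSG00000166710, chr15:44711487-44718877, plus strand) encodes the light chain and lies outside the HLA region. It measured 427, 554 and 520 CPM in SCC and 487, 480 and 448 CPM in RCC. SCC replicate 1 was the lowest of all 6 libraries and the other SCC replicates were the highest pair. The log2 fold change was 0.09 (SE 0.091, adjusted p 0.618), not called. B2M is poor in GC (40.6%), and no 50-base word of its transcripts occurred elsewhere. Without SCC replicate 1 the log2 change was 0.19 and called (adjusted p 0.0151), with the GC offset 0.17 and not called (0.0882), and without SCC replicate 2 it was -0.01.

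**Figure D2:**
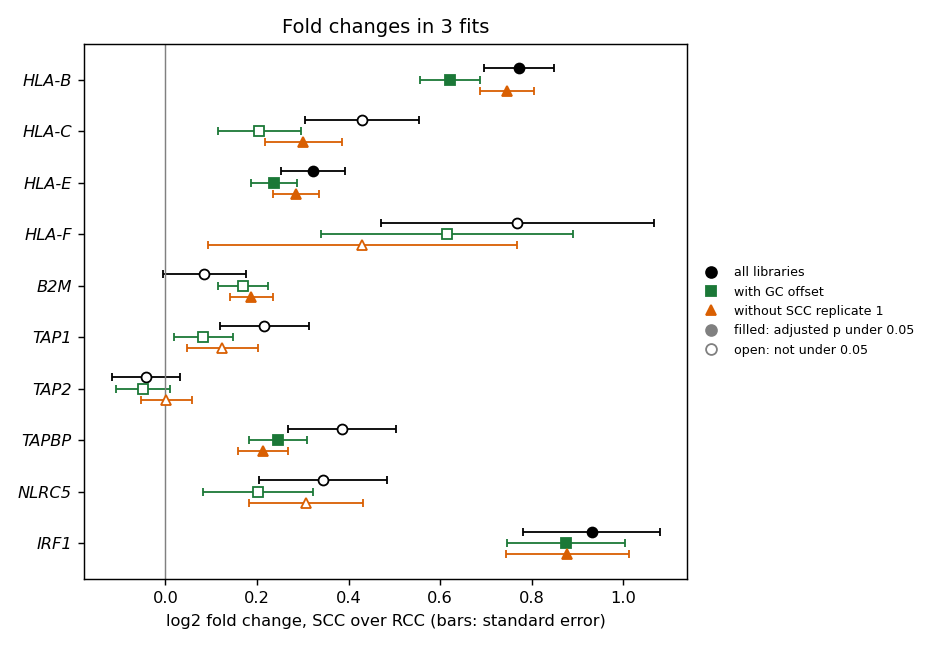
Log2 fold change of SCC over RCC with its standard error for the 9 genes and IRF1, in the fit of all libraries, with the GC offset and without SCC replicate 1. Filled symbols are called: HLA-B, HLA-E and IRF1 are filled in all 3 fits, and TAP2 stays near 0 in each.

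The transporter subunits were close between the groups. TAP1 (ENSG00000168394, chr6:32845209-32853978, minus strand) measured 51.3, 39.8 and 46.1 CPM in SCC and 39.9, 38.9 and 39.4 CPM in RCC. The RCC libraries were tightly grouped, and SCC replicate 2 lay among them. The log2 fold change was 0.22 (SE 0.097, adjusted p 0.249), and 0.08 with the GC offset. TAP2 (ENSG00000204267, chr6:32821833-32838780, minus strand) measured 105, 116 and 116 CPM in SCC and 118, 122 and 107 CPM in RCC. The ranges overlapped in part, with SCC replicate 1 below every RCC library and RCC replicates 1 and 2 above every SCC library. Its log2 fold change was -0.04 (SE 0.075, adjusted p 0.774). A same-strand read-through gene, AL669918.1, covers 32.3% of the exonic bases of TAP2 and held 1 count in all libraries together. How reads that fall on both genes were counted is not given in the sources used here. TAP1 and TAP2 were called in 0 of the 19 alternatives.

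TAPBP (ENSG00000231925, chr6:33299694-33314387, minus strand), which encodes tapasin, measured 188, 131 and 141 CPM in SCC and 119, 110 and 123 CPM in RCC. The groups did not overlap, and SCC replicate 1 was far above its fellows. The log2 fold change was 0.39 (SE 0.119, adjusted p 0.126 in edgeR), not called. Without SCC replicate 1 the change shrank to 0.21 and was called (adjusted p 0.0173), and with the GC offset it was 0.25 and called (0.0376). TAPBP was called in 7 of 19 alternatives, all in the same direction.

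None of 24 genes for peptide supply, trimming and loading was called (0 by edgeR), and their median log2 change was 0.00. Before adjustment, edgeR p was under 0.05 for 2 in the higher and 3 in the lower direction. This stood beside 1814 and 1313 of all 15881 tested genes. PSMB8, an immunoproteasome subunit that interferon gamma induces, measured 64.5, 60.2 and 62.2 CPM in SCC and 56.3, 58.6 and 53.1 CPM in RCC. The groups did not overlap, with SCC wholly higher as in 14.4% of tested genes, at a log2 change of 0.15 (edgeR adjusted p 0.272). The other immunoproteasome subunits PSMB9 and PSMB10 gave 0.07 and 0.06 (adjusted p 0.741 and 0.859). The trimming peptidases ERAP1 and ERAP2 gave -0.08 and 0.08 (0.626 and 0.751). Among chaperones of the loading complex, CALR gave 0.09, CANX -0.09 and PDIA3 -0.09 (0.414, 0.421 and 0.512). PRKCSH, a glucosidase subunit that trims glycans, had the smallest p of the list, at 0.28 (adjusted p 0.162). The 3 standard catalytic subunits of the proteasome had 0 calls and a median of -0.07, with the smallest p for PSMB7 (-0.07, adjusted p 0.554).

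**Figure D3:**
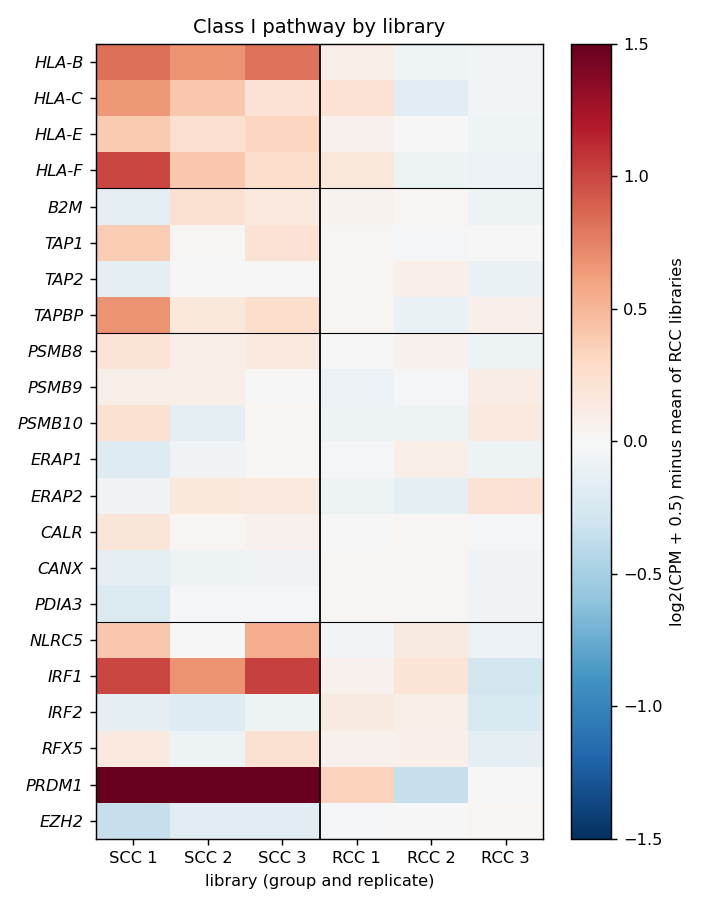
Colour gives log2(CPM + 0.5) minus the mean of the RCC libraries for heavy chains, light chain with transporter and tapasin, peptide supply genes, and regulators, with a column for each library. HLA-B, IRF1 and PRDM1 are red in all 3 SCC columns, and the peptide supply block is pale throughout; PRDM1 passes the end of the scale.

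NLRC5 (ENSG00000140853, chr16:56989485-57083531, plus strand) was low, at 20.5, 15.4 and 22.5 CPM in SCC and 14.9, 16.8 and 14.3 CPM in RCC. SCC replicate 2 fell within the RCC values and the other SCC libraries were above them. The log2 fold change was 0.34 (SE 0.140, adjusted p 0.214 in edgeR), not called. It was called in 1 of 19 alternatives, without SCC replicate 2 (0.47, adjusted p 0.0422). No 50-base word of NLRC5 was shared with another gene.

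Of 26 regulators of class I transcription, IRF1 and PRDM1 were called higher (7.69%, against 1.69% of all tested genes) and 0 lower (background 0.378%). Their median log2 change was 0.00. Before adjustment, edgeR p was under 0.05 for 5 in the higher direction, which adds IRF3, IRF7 and RELA. In the lower direction it was so for 2, CREB1 and EZH2. Over all 15881 tested genes, 1814 in the higher and 1313 in the lower direction had such a p. IRF1, which binds interferon response elements and activates class I genes, measured 19.1, 15.1 and 19.4 CPM in SCC and 9.69, 10.8 and 7.55 CPM in RCC. Every SCC library was above every RCC library, and the means differed 1.91-fold (17.8 ± 2.39 against 9.33 ± 1.63 CPM, SD, n = 3 each; log2 change 0.93, SE 0.149, edgeR adjusted p 0.00906). The call was kept in 14 of 19 alternatives and lost without RCC replicate 1 (adjusted p 0.0613) or 3 (0.0545) and in the 3 limma fits on FPKM. PRDM1, a transcriptional repressor, was scarce at 3.60, 3.43 and 2.94 CPM in SCC and 1.00, 0.43 and 0.67 CPM in RCC, a log2 change of 2.22 (SE 0.30, edgeR adjusted p 0.00253). It was called in 15 of the 16 alternatives that tested it.

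Other regulators gave smaller values. IRF2, a relative of IRF1, had a log2 change of -0.15 (adjusted p 0.466) and RFX5, a subunit of the X-box complex, 0.10 (0.570). EZH2, a histone methyltransferase known to silence class I genes in some tumours, had -0.22 (0.146). CIITA, the class II transactivator, was at or under 0.07 FPKM in every library, with a log2 change of -0.66 (0.367). With the GC offset, RELA was also called higher and SOCS3 lower (background 3.29% and 1.54%). When SCC replicate 1 was left out, RELA was called higher and SOCS3 and CREB1 lower (background 3.93% and 2.1%). These 3 genes were chosen after their values were seen. In the fit of all libraries their log2 changes were 0.33, -0.16 and -0.24 (adjusted p 0.106, 0.400 and 0.129).

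Genes that signal upstream of this pathway, and those that act on class I at the surface, gave no calls in the fit of all libraries. None of 10 tested interferon and TNF receptors and kinases was called (0 by edgeR), at a median log2 change of 0.04. Before adjustment, 2 were above and 0 below RCC at edgeR p under 0.05, beside 1814 and 1313 of all 15881 tested genes. TNFRSF1A, a TNF receptor, had the smallest p (0.18, adjusted p 0.220). Its groups did not overlap, with SCC wholly higher as in 14.4% of tested genes. The other with an unadjusted p under 0.05 was TNFRSF1B, also a TNF receptor, at 0.22 to 1.37 CPM, with a log2 change of 1.14 (SE 0.489, adjusted p 0.234) and overlapping groups. All 10 interferon and TNF ligand genes were under 1 FPKM in every library and 0 were tested, with 5 listed at 0 throughout. For turnover of class I at the surface, 0 of 13 genes were called (2 above and 0 below RCC before adjustment; median 0.06), with the smallest p for the ubiquitin ligase MARCH8 (0.27, adjusted p 0.180). Among 12 tested ligands of natural killer receptors and checkpoints 0 were called (1 above and 1 below RCC before adjustment; median 0.00). There MICA gave -0.01 (adjusted p 0.946), CD274, which encodes PD-L1, -0.04 (0.867) and NECTIN2 0.34 (0.144). MICB, a stress-induced ligand like MICA, gave -0.22 (0.157). Its SCC libraries were all below its RCC libraries, and the share of all genes with that pattern is not reported here. MICB was called lower with the GC offset, and NECTIN2 higher on leaving out SCC replicate 1 or 2 (adjusted p 0.0452 and 0.0346). TNFRSF1B and MICB were chosen after their values were seen.

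Because a heavy chain needs a light chain, ratios of FPKM were set side by side, 6 in all, chosen with the single-gene values in view. HLA-B over HLA-E was 0.690, 0.689 and 0.718 in SCC and 0.527, 0.486 and 0.521 in RCC. This ratio was the steadiest of those with HLA-B, with means of 0.699 ± 0.0164 and 0.511 ± 0.0218 (SD, n = 3 each). HLA-B over B2M was 0.516 ± 0.0956 in SCC and 0.315 ± 0.0164 in RCC, and HLA-B over HLA-C 1.65 ± 0.267 and 1.29 ± 0.0979. None of these ratios overlapped between groups, so HLA-B stood higher in SCC relative to each of those genes. The two-sided exact permutation test gave p = 0.1 for each, its floor with 3 libraries a group, and 0.15 after adjustment over the 6 ratios. TAP1 over TAP2 overlapped between groups, at 0.544 ± 0.0965 and 0.454 ± 0.0319 (exact p 0.2, adjusted 0.24), as did TAP1 over PSMB9, at 1.78 ± 0.245 and 1.60 ± 0.124 (exact p 0.3, adjusted 0.3). PSMB8 over PSMB5, an immunoproteasome subunit over the standard subunit it replaces, was 0.158 ± 0.01 in SCC and 0.134 ± 0.0149 in RCC without overlap (exact p 0.1, adjusted 0.15).

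By mean level per length over all libraries, the order was B2M (79.6 FPKM), HLA-E (53.5), HLA-B (32.9), TAPBP (26.6), HLA-C (22.3), TAP2 (17.8), TAP1 (8.81), NLRC5 (1.40) and HLA-F (0.415). B2M ranked 476 and HLA-F 15450 among all genes. In SCC, HLA-B (38.8 to 43.0 FPKM) was above TAPBP (25.9 to 36.6 FPKM) in every library, whereas in RCC the same pair overlapped (23.5 to 26.0 and 21.8 to 24.3 FPKM). The ranges of TAPBP and HLA-C overlapped as neighbours in both groups, though TAPBP was the higher of the pair within every library. The ranges of HLA-C and TAP2 overlapped in RCC alone. B2M, HLA-E and HLA-B were separated from each other in both groups, as were TAP2, TAP1, NLRC5 and HLA-F. These levels rest on the annotated length and, in the HLA genes, on how reads from close copies were assigned. The TAP2 level also rests on how reads shared with AL669918.1 were counted.

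GC content moved with the fold change across all genes, and most of the 9 genes are rich in GC. Their median GC was 57.6%, beside 48.1% over tested genes, and HLA-B, HLA-C, HLA-E, HLA-F, TAP1, TAPBP and NLRC5 lay in the upper 3 deciles. The median log2 change of all genes was 0.11, 0.16 and 0.25 in those deciles and -0.15 in the lowest. Without SCC replicate 1 the highest decile had 0.09. With the GC offset, log2 changes were 0.62 for HLA-B, 0.24 for HLA-E, 0.25 for TAPBP, 0.21 for HLA-C and 0.08 for TAP1. The first 3 of these were called (edgeR adjusted p 2.39e-05, 0.0118 and 0.0376).

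**Figure D4:**
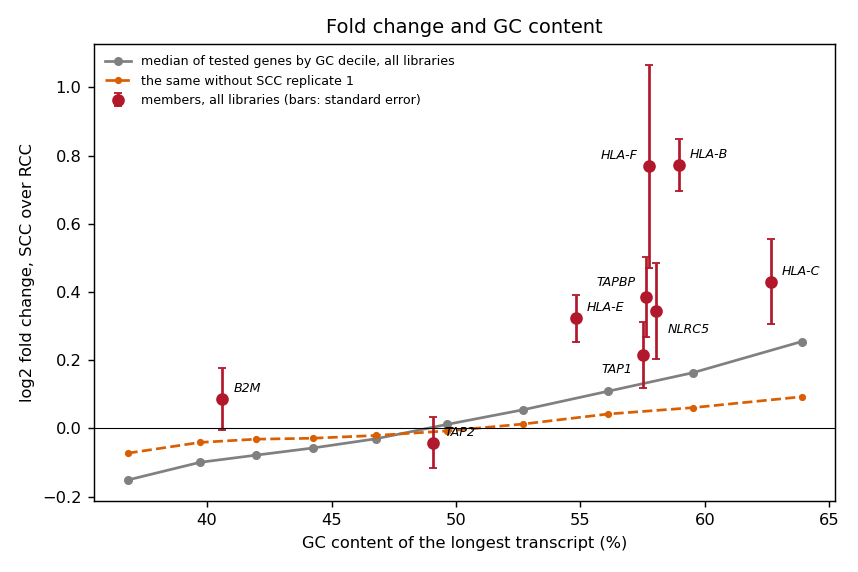
Log2 fold change of SCC over RCC against the GC percentage of the longest transcript, with the median of tested genes by decile of GC content (grey, all libraries; orange dashes, without SCC replicate 1) and the 9 genes with their standard errors in red. The grey line climbs from -0.15 to 0.25, and HLA-B lies far above it at 0.77, while TAP1 and TAP2 lie near it.

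SCC replicate 1 also carried slight traces of other genes. Class II genes, which antigen-presenting cells use, were under 1 FPKM in every library for all 12 genes listed, with 2 tested and 0 called (smallest p for HLA-DMA, log2 change 0.53, adjusted p 0.372). Their summed level was 1.79 FPKM in SCC replicate 1 and 0.655 to 0.939 FPKM in the other libraries. HLA-DRA was at 0.40 FPKM in that library, 0.09 in RCC replicate 3 and 0 elsewhere, and CD74 at 0.46 against 0.02 to 0.09 FPKM. All 15 leukocyte markers were under 1 FPKM in every library, summing to 2.47, 0.655 and 1.25 FPKM in SCC and 1.04 to 1.09 FPKM in RCC, with 3 tested and 0 called. None of the 15 was at 0 in all libraries: PTPRC, which encodes CD45, was at 0.21 FPKM in SCC replicate 1 and 0.02 to 0.08 FPKM elsewhere, and GNLY, a granule protein of killer cells, had the smallest p (log2 change 1.69, adjusted p 0.170). The part of these traces in the HLA-B difference was not tested. In bulk RNA, a larger share of cells with much HLA-B and more HLA-B per cell cannot be told apart.

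In the interval from HLA-F to TAPBP on chromosome 6 (chr6:29722775-33314387), examined after the values were seen, 119 of 311 genes were tested. Of these, 7 were called higher (5.88%, against 1.69% of all tested genes) and 0 lower, with a median log2 change of 0.12. They were HLA-B and HLA-E, which are members already counted above, and BRD2, IER3, HSPA1B, TNXB and C4B. BRD2, a bromodomain protein, gave 0.61 and IER3, an immediate early gene, 0.74 (edgeR adjusted p 0.000455 and 0.00887). HSPA1B, TNXB and C4B have near-identical copies nearby, so their values are uncertain. C4B also had few counts, 12 to 19 in SCC libraries and 1 to 2 in RCC libraries. The interval is rich in GC (median 55.1%), and with the GC offset its median log2 change was 0.01, with 12 genes called higher and 1 lower (background 3.29% and 1.54%). When SCC replicate 1 was left out, its median was 0.065, with 15 called higher and 0 lower (background 3.93% and 2.1%).

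The genes most like HLA-B in pattern were sought among 10905 genes with a mean of at least 5 CPM. Likeness was the root mean square difference of log2(CPM + 0.5), centred per gene, over the 6 libraries. Nearest to HLA-B were MYLIP (0.073), TSPYL2 (0.075) and CEMIP (0.079), against 0.391 for the spread of HLA-B about its own mean. MYLIP, a ubiquitin ligase, measured 39.8, 40.7 and 38.3 CPM in SCC and 23.9, 21.9 and 22.1 CPM in RCC. Nearest to B2M were S100A2, ATP6V1D and UBE2F, to TAP1 IL27RA, RCC1L and TRAPPC9, and to NLRC5 PTPN6, CNNM2 and KIF16B. Members were left out of this search. The genes found were chosen for these values, so no test is given for them.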

How the data were processed

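Libraries were made from total RNA with an NEBNext Ultra kit, per the labels' protocols. The submitters' processing notes name HISAT2 2.0.5 and featureCounts 1.5.0-p3; their settings, the genome build and the use of strand are not given in the sources used here. The authors deposited whole-number read counts per gene and FPKM values. The FPKM values are counts per length and a library size that was 0.983 to 1.02 times the library total. All 58735 rows matched GENCODE release 29 (GRCh38) by gene ID and position, and 27 names that had become dates were restored by ID. Every row named a gene.

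Counts as deposited were tested with edgeR 4.0.16 (R 4.3.3): filterByExpr at a minimum count of 10, TMM scaling, quasi-likelihood F test on group over 3 against 3 libraries, two-sided, Benjamini-Hochberg over all tested genes, called at an adjusted p under 0.05. The standard error is the log2 fold change over the square root of F. Library totals were 27831824, 19498054 and 21166766 counts in SCC and 22746267, 20962062 and 17655855 in RCC, which limit precision for genes of few counts such as HLA-F and PRDM1. Alternatives were DESeq2 1.42.0, other scalings and filters, thinning, a GC offset (lowess, span 0.3), the replicate number as a block, each library left out, and limma 3.58.1 on log2(FPKM + 1) or log2(FPKM + 0.1). The GC offset without SCC replicate 1 was added after seeing the data. Scripts were tested on simulated data.

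Named are the 9 members, a set of pathway genes (such as PSMB8, ERAP1, CALR, IRF1 and CD274) whatever their result, called genes and the smallest p of each of the remaining 12 lists, and the 3 genes nearest in pattern to 4 members. Others were chosen after their values were seen. Some pathway genes are not reported here. The members and lists were chosen with earlier results of these data known. Whether same-numbered libraries were prepared together is not given in the sources used here. Deviations of same-numbered libraries correlated at -0.02, 0.04 and -0.10, which cannot decide it.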

Additional observations from a re-analysis of the deposited data

How the results depend on the processing

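HLA-B was called in all 19 alternatives, HLA-E in 11, IRF1 in 14, TAPBP in 7, HLA-C in 4, B2M in 2 and NLRC5 in 1, and HLA-F, TAP1 and TAP2 in 0 of those that tested them. Of 647 values over 35 named genes, 593 kept direction and side of the threshold, 14 lost the call, 24 gained it and 16 changed sign; the causes were not tested. Against 268 genes called higher and 60 lower, there were 523 and 244 with the GC offset, 644 and 389 with it and without SCC replicate 1, and 995 and 315 over every gene with at least 1 count. DESeq2 gave 397 higher and 135 lower. On FPKM, limma gave 130 and 36 (pseudocount 1), 117 and 34 (0.1), and 48 and 1 without a filter. Leaving out each library gave 99 to 642 higher and 8 to 343 lower. Members called higher, 2 of 9 (268 genes in all), were 4 with DESeq2 (397 in all). They were also 4 over every gene with at least 1 count (995) and in the offset fit that leaves out SCC replicate 1 (644). They were 1 with upper-quartile scaling (249) and in each limma fit (48 to 130), and 1 to 5 with a library left out. The lowest, 1, came on leaving out SCC replicate 3 (179 in all) or any RCC library (99 to 103). The highest, 5, came on leaving out SCC replicate 1 (642 in all, 3.93%). The number of all genes called moved with the fit as well, so these counts do not describe the members alone. Members called lower were 0 in every alternative.

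Log2 changes that turned sign were small. Over the leave-out fits, B2M ran from -0.0078 (without SCC replicate 2) to 0.19, TAP2 from -0.10 to 0.0022 (without SCC replicate 1), PSMB10 from -0.055 (without SCC replicate 1) to 0.13, and CD274 from -0.11 to 0.059 (positive without SCC replicate 1). PSMB9 was -0.0097 after thinning. With the GC offset, PSMB10 was -0.12, ERAP1 0.027 and CD274 0.049. In the offset fit that leaves out SCC replicate 1, TAP2 was 0.0053, PSMB10 -0.12, ERAP1 0.022, PDIA3 0.00028 and CD274 0.091. For the replicate block, 1 of 6 libraries correlated best with its own number, which does not settle whether the numbers pair libraries. The edgeR fit with this block called 350 genes higher and 106 lower, sharing 315 of 328 calls. Among the members it called HLA-B, HLA-C (adjusted p 0.0238) and HLA-E. The replicate block with the GC offset called 621 and 430, with PSMB10 at -0.12, ERAP1 at 0.027 and CD274 at 0.048.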
